A study of Mus musculus with 74 samples.

Results

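The Krüppel-like factors (KLFs) examined here are 10 transcription factors of one zinc finger family, Klf2, Klf3, Klf4, Klf5, Klf6, Klf7, Klf9, Klf10, Klf13 and Klf15. They were taken by name out of 53379 genes counted in mouse dorsal root ganglia (DRG) after injury of the peripheral or the central axon branch, and all 10 passed the filters on low counts in both experiments. KLFs bind GC-rich and CACCC-type DNA through 3 C-terminal zinc fingers, and their N-terminal parts recruit different partners. By the partners they are known for, Klf2, Klf4, Klf5, Klf6 and Klf7 are mostly activators that bind acetyltransferases, Klf3 is a repressor that binds CtBP, and Klf9, Klf10 and Klf13 bind the Sin3A corepressor. Klf15, which belongs to none of these 3 groups, is known as a glucocorticoid-induced regulator of metabolism. In central neurons Klf6 and Klf7 are known to promote axon growth, whereas Klf4 and Klf9 are known to limit it. Klf2 and Klf4 are also abundant in endothelium.

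RNA was sequenced in 2 experiments. Whole L4 DRG came from wild-type female C57BL/6 mice aged 10 to 12 weeks, of which 4 were uninjured and 4 had received a spinal cord injury (SCI), a dorsal hemisection at T9/10, 1 day earlier. Sorted neurons came from L4 DRG of female Thy1YFP16 mice aged 10 to 20 weeks, a line whose Thy1 promoter drives yellow fluorescent protein in large-diameter sensory neurons, many with an axon ascending in the spinal cord. YFP-positive cells were collected by fluorescence-activated cell sorting (FACS) at about 100 cells per well, with 3 wells per mouse, from 6 naive mice and from 4 mice at each of 1 day and 3 days after SCI or a crush of the sciatic nerve (SNI). The wells of a mouse were summed, so that n counts mice, and the mice came in 2 sequencing sets that the sample titles call FACS and FACS2018. The naive mice were labelled day 1 or day 3 and were pooled here into 1 group, so the 4 comparisons with naive share their controls. Cells of every sorted group, naive included, had been dissociated, which cuts their axons.

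Whole DRG libraries held 21959030 to 44493319 reads on genes, and the sorted wells held 1494217 to 49015375, or 30518187 to 83599972 per mouse. The biological coefficient of variation estimated by edgeR was 0.13 in whole DRG and 1.19 in the sorted samples, so much larger differences were needed for a call in the latter. The sorted wells were not alike. In 20 of 66 wells, 3.16% to 14.4% of reads fell on 9 genes of Schwann and satellite glia, against 0.167% to 1.28% in the other 46. These glial wells were unevenly spread and made up 4 of 6 naive wells and 4 of 6 SCI 3 day wells of set FACS2018 but 2 of 12 naive wells and 0 of 6 SCI 3 day wells of set FACS. The sorted comparisons were therefore fitted with all wells (22 mice) and without the glial wells (20 mice, since 1 SNI 3 day and 1 SCI 3 day mouse of set FACS2018 had no other well). In bulk samples of this kind, fewer cells of a type and less RNA per cell cannot be told apart.

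The promoters of 3 members are shown because the results turn on these genes: Klf15, the member called in whole DRG, Klf6, the member called in sorted neurons, and Klf7, the other member known for axon growth. Each is the 250 bases before the RefSeq start of the gene in GRCm38.p6, written 5′ to 3′ on the gene's strand, with capitals for GC boxes (GGGCGG or CCGCCC) and CACCC boxes (CACCC or GGGTG), the classes of site that KLFs themselves can bind. The windows lie at chr13:5861239-5861488 on the plus strand for Klf6, chr1:64121390-64121639 on the minus strand for Klf7 and chr6:90462326-90462575 on the plus strand for Klf15. The Klf7 window lies inside the span given for the gene below, 64029447 to 64122282, since the RefSeq start is not the outer end of that span.
Klf6: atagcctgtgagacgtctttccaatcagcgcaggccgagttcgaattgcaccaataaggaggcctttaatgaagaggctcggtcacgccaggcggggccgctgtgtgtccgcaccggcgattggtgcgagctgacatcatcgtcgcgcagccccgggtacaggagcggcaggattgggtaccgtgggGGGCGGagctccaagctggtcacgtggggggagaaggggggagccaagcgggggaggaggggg
Klf7: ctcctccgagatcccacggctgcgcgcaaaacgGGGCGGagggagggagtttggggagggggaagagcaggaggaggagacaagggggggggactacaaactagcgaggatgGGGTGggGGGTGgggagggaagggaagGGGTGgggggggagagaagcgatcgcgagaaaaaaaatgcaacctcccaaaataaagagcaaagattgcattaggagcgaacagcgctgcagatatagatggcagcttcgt
Klf15: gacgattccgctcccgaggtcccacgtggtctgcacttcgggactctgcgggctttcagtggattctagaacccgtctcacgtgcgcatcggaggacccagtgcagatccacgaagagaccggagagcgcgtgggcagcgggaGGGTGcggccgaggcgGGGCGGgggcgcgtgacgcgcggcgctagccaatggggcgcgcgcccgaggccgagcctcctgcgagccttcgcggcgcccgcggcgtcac

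The Klf6 window held 1 GC box and 0 CACCC boxes, the Klf7 window 1 GC box and 3 CACCC boxes, and the Klf15 window 1 of each. Windows were found for 8 members and not for Klf5 or Klf10. A GC box stood in 7 of these 8, against 32.7% of the 32851 promoter windows of the same length, and a CACCC box in 6 of 8, against 52%. The cAMP response element half-site (TGACG or CGTCA, which contains neither box) stood in 5 of 8, against 17.8%, with 2 copies in the Klf15 window and 0 in those of Klf6 and Klf7. The AP-1 site (TGANTCA, both strands), the class of site bound by Jun, stood in 1 of 8, against 6.75%. The windows of the 8 members were 59.2% to 78.4% G or C, and the windows they are set against were not matched for this. These are matches of letters and describe no binding.

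In uninjured whole DRG the KLFs spanned a wide range of levels per transcript length, given here in RPKM (CPM divided by transcript length in kilobases). Klf7 (median 23.7 RPKM), Klf6 (22.7 RPKM) and Klf9 (21.6 RPKM) were the highest, and neighbours among these 3 overlapped between mice. Klf13 followed at 12.8 RPKM, then Klf10 at 8.66, Klf15 at 4.71 and Klf5 at 3.83 RPKM. Klf2 (1.91 RPKM), Klf3 (1.84 RPKM) and Klf4 (0.704 RPKM) were the lowest, and the ranges of Klf2 and Klf3 overlapped. After SCI the median of Klf15 was 8.08 RPKM, in the range of Klf10 (median 7.66 RPKM). Exons of Klf7 are overlapped on the opposite strand by 2815 bases of Gm26649 and those of Klf3 by 404 bases of Gm20033. Since the counts were not stated to use strand, reads from these partners cannot be told apart from those of Klf7 and Klf3.

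At 1 day after SCI, Klf15 was the member of the family that edgeR called in whole DRG. It lies on chromosome 6 at 90462576 to 90475238 in GRCm38. Its levels in the 4 uninjured mice were 12.4, 12.3, 14.0 and 16.1 CPM (counts scaled to library size), and in the 4 SCI mice 22.4, 27.4, 22.7 and 21.8 CPM. Every SCI mouse lay above every uninjured mouse. The mean rose from 13.7 ± 1.81 to 23.6 ± 2.59 CPM (SD, n = 4 per group). On the log2 scale this was a difference of 0.78 (SE 0.11), or 1.72-fold, with an adjusted p of 0.0138 in edgeR's quasi-likelihood test. Of the 10 KLFs 1 was called at an adjusted p under 0.1 and 4 had an unadjusted p under 0.05, while of all 17616 genes tested 408, or 2.32%, were called and 2570 had an unadjusted p under 0.05. Groups that did not overlap were found for 1 of 10 KLFs and for 11% of all genes, so that separation alone did not set the family apart.

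**Figure D1:**
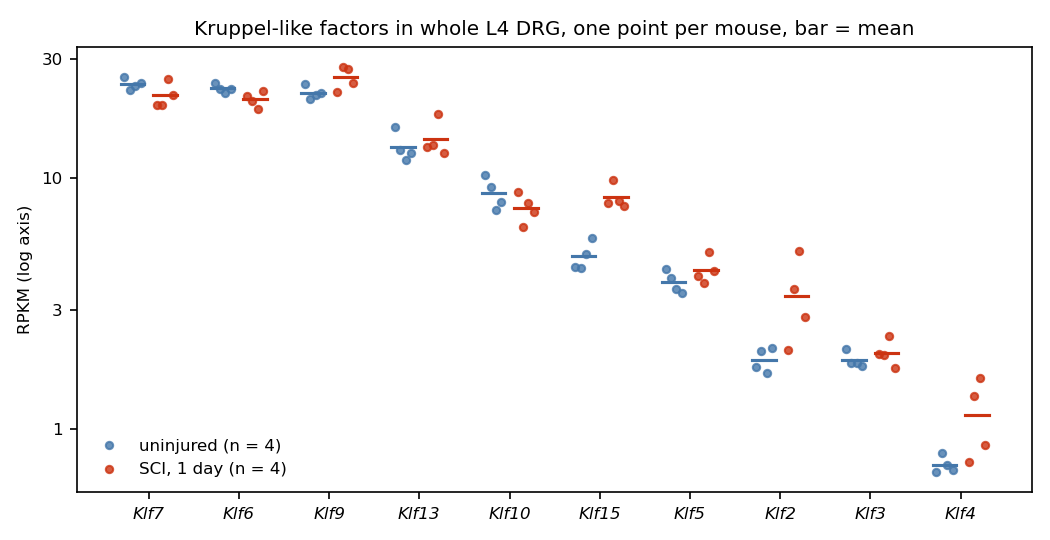
Levels of the 10 KLFs in whole DRG, in RPKM on a log axis, with 1 point per mouse for 4 uninjured and 4 SCI mice at 1 day. The 4 Klf15 points after SCI all lie above the uninjured ones, while the groups of every other member overlap.

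Genes known to be induced by glucocorticoids moved the same way as Klf15. Of 12 such genes tested, 7 rose and 0 fell at an adjusted p under 0.1, with a median log2 fold change of 0.77 over the list, against 0.014 over all genes. Zbtb16, a zinc finger repressor, rose by a log2 fold change of 1.17 (adjusted p = 0.000535), Hif3a, an inhibitor of hypoxia signalling, by 2.08 (adjusted p = 0.00893), the metallothionein Mt2 by 1.87 (adjusted p = 0.0131), and Fkbp5, a chaperone of the glucocorticoid receptor, by 0.56 (adjusted p = 0.0358). This list was chosen with earlier results of these data known and is no independent evidence of a direction. Red blood cell genes also rose, 4 of 5, with the near-identical globin genes Hbb-bs at a log2 fold change of 1.84 and Hbb-bt at 1.70, and their summed share was 0.00133% to 0.00208% of reads in uninjured and 0.00206% to 0.009% in SCI libraries. The SCI mouse with the lowest red cell share, 0.00206%, also had the lowest Klf15 of the SCI mice, 21.8 CPM. The SCI mouse with the highest share, 0.009%, had the highest Klf15, 27.4 CPM. Among uninjured mice it was the reverse, as the lowest share, 0.00133%, went with the highest Klf15, 16.1 CPM. Of 10 neuronal genes 0 were called, with 0 at an unadjusted p under 0.05 and 0 called by DESeq2, and of 9 glial genes 0 were called, with 3 and 1. Of 6 fibroblast genes 1 was called, Lum, which fell by 0.71 on the log2 scale, and the list's median was -0.28. Of 8 macrophage genes 1 was called, Cx3cr1, which fell by 0.62, but the list's median was 0.29, 4 had an unadjusted p under 0.05 and DESeq2 called 3. The summed macrophage share was 0.00767% to 0.0100% of reads in uninjured and 0.0104% to 0.0121% in SCI libraries, which did not overlap. The part of red cells, fibroblasts and macrophages in the Klf15 result was not tested.

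The genes whose level across the 8 whole DRG libraries was most like that of Klf15 were K230015D01Rik (Pearson r = 0.986), E030037K01Rik (r = 0.986) and the acute-phase serine protease inhibitor Serpina3n (r = 0.984). These correlations of log2 CPM describe 8 libraries that fall into the 2 groups, so any gene that differs between the groups correlates with Klf15.

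None of the activators passed edgeR's test in whole DRG. Klf2 was 3.28, 3.78, 3.09 and 3.88 CPM in uninjured mice and 3.83, 6.67, 9.52 and 5.17 CPM after SCI. SCI mice 2, 3 and 4 lay above the uninjured range and mouse 1 within it, and the log2 fold change of 0.85 (SE 0.24) had an adjusted p of 0.142 by edgeR. Klf4 had the same order of SCI mice, at 2.25, 4.14, 4.86 and 2.65 CPM, against 2.06, 2.45, 2.20 and 2.10 CPM in uninjured mice, with a log2 fold change of 0.67 (SE 0.23, adjusted p = 0.215). DESeq2 called Klf2 (adjusted p = 0.0252) but edgeR with the planned filter did not. Of 10 endothelial genes, which mark the cells where Klf2 and Klf4 are known to be abundant, 0 were called by edgeR or DESeq2 and 1 had an unadjusted p under 0.05. Their summed share was 0.0141% to 0.0169% of reads in uninjured and 0.0144% to 0.0203% in SCI libraries, and its part in the Klf2 and Klf4 values was not tested.

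Klf6 and Klf7, the members known for promoting axon growth, were both lower on average after SCI in whole DRG, within overlapping ranges. Klf6 was 96.3 to 106 CPM in uninjured and 83.3 to 97.5 CPM in SCI mice (log2 fold change -0.14, SE 0.07, adjusted p = 0.372). Klf7 was 184 to 207 CPM and 160 to 203 CPM (log2 fold change -0.15, SE 0.08, adjusted p = 0.437). Klf5 differed by 0.16 (SE 0.11) on the log2 scale. Neither axon growth member nor Klf5 passed the test.

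The repressor groups gave no call either. Klf9, a hormone-responsive factor known to limit axon growth, was 99.7 to 114 CPM in uninjured mice and 107 to 134 CPM after SCI, with a log2 fold change of 0.21 (SE 0.08, adjusted p = 0.286). Klf10, known as a gene induced early by TGF-beta, was 31.2 to 43.0 CPM and 26.7 to 37.0 CPM (log2 fold change -0.20, SE 0.12). Klf13 differed by 0.11 (SE 0.13) and the CtBP-binding Klf3 by 0.10 (SE 0.10), values no larger than their standard errors or close to them. Among 9 other KLF and SP family genes tested 0 were called, with 0 at an unadjusted p under 0.05 and 0 called by DESeq2. Among 12 genes of KLF cofactors 0 were called by edgeR or DESeq2 and 2 had an unadjusted p under 0.05.

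Klf2, Klf4, Klf6 and Klf10 are known to respond within minutes to stimuli, and 14 other early-response genes were read beside them. Of these 14, 3 rose in whole DRG after SCI and 0 fell: the injury-induced factor Atf3 by a log2 fold change of 2.39 (SE 0.27, adjusted p = 0.00431), Jun, an AP-1 subunit, by 0.68 (SE 0.09, adjusted p = 0.00893) and the phosphatase Dusp1 by 0.49 (SE 0.12, adjusted p = 0.0887).

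In the sorted wells the KLFs split by the kind of well they were abundant in. In 12 mice that had both kinds, Klf2 had a median of 262 RPM (reads scaled to the library total) in glial wells and 4.65 in the other wells, and was higher in the glial wells of 11 of 12 mice. Klf13 was 1138 and 439 RPM, higher in the glial wells of 12 of 12 mice. Klf6 (693 and 188) and Klf9 (152 and 57.2) were each higher in the glial wells of 10 of 12 mice. Klf7 went the other way, with 35.9 RPM in glial wells and 325 in the others, and was higher in the glial wells of 1 of 12 mice. Klf5 did likewise, at 0 and 4.44, also with 1 of 12 mice higher. Klf10 was 89.1 and 36.6 (8 of 12 mice higher), Klf4 10.8 and 1.65 (6 of 12), Klf3 2.16 and 6.10 (5 of 12) and Klf15 0.206 and 0.205 (6 of 12).

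For reference, Rbfox3, a neuronal nuclear protein gene that was not used to divide the wells, was 0.385 RPM in glial wells and 29.5 in the others, and was higher in the glial wells of 0 of 12 mice. The wells were divided by glial reads, and glial wells could also hold reads of other cells, so these values describe wells and are given without a test. Within the 12 mice Klf2 and Klf13 mostly moved with the glial genes, and Klf7 and Klf5 mostly against them. The exception for Klf5 was the naive FACS2018 mouse labelled day 1, with 240 RPM in glial wells and 57.8 in its other well. The highest Klf5 of the 22 mice with all wells was 359 CPM. That value came from a SCI 3 day mouse whose wells were all glial, which is not among the 12 mice. Its 3 wells also held 4.36%, 5.81% and 2.99% of reads on the fibroblast genes. The glial wells of the naive mouse above held 1.37% and 1.92%, against a median of 0.0628% over the 20 glial wells. The part of fibroblasts in these Klf5 values was not tested.

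**Figure D2:**
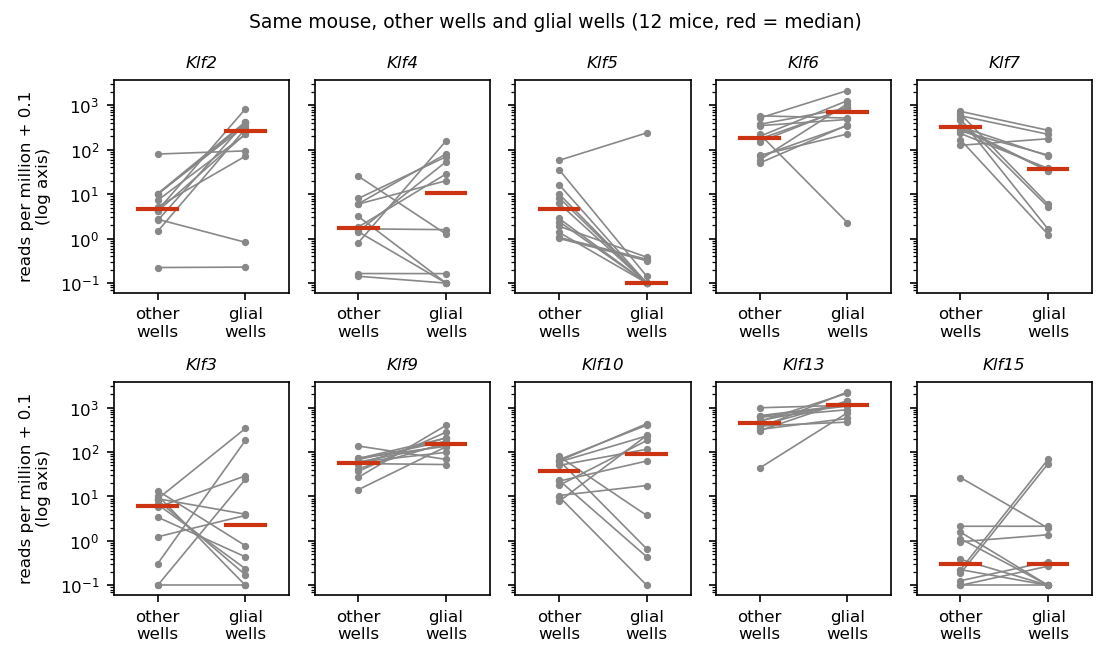
RPM of each KLF (plus 0.1, log axis) in the other wells and the glial wells of the 12 mice that had both, each mouse joined by a line. Klf2 and Klf13 lie higher in glial wells in 11 and 12 mice, and Klf7 and Klf5 in 1 mouse each.

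Without the glial wells, the naive sorted samples had median levels of 51.1 RPKM for Klf13, 40.0 for Klf7, 17.7 for Klf6, 11.9 for Klf10 and 9.68 for Klf9. Klf2 (1.90 RPKM), Klf4 (1.55), Klf5 (0.726), Klf3 (0.210) and Klf15 (0.109) were low. Neighbours in this order overlapped between mice. Klf15 stood at a median of 4.71 RPKM in uninjured whole DRG and 0.109 RPKM in naive sorted samples, but the library kit and the sorting differed between the experiments and cannot be told apart.

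With all wells and 22 mice, 0 of 10 KLFs were called by edgeR in any of the 8 sorted comparisons. Over all 23507 genes tested the share called was 0.519% for SNI at 1 day against naive, 0.442% for SNI at 3 days, 0.0468% for SCI at 1 day and 0.051% for SCI at 3 days, and 0% for each of the 4 comparisons between injured groups (SNI against SCI at each time, and 3 days against 1 day of each injury). At an unadjusted p under 0.05 the number of KLFs in the 4 comparisons with naive was 2, 2, 1 and 0, and in the comparisons between injured groups it was 1, 2, 1 and 0, while over all genes this number was 1916 to 3283 of 23507 in the 8 comparisons. Klf6 had the smallest adjusted p of the family, 0.164 for SNI at 1 day, with a log2 fold change of 1.54 (SE 0.45). DESeq2 called Klf6 there (adjusted p = 0.0884) and Klf5 between SNI and SCI at 3 days (log2 fold change -3.35, adjusted p = 0.0564). For Klf5, 1 SCI 3 day mouse whose wells were all glial, and also rich in fibroblast reads, had 359 CPM, against a group median of 7.08 CPM. Without glial wells this difference of Klf5 was -1.06 (SE 1.05, adjusted p = 0.849 by edgeR).

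Without the glial wells, Klf6 was higher after SNI. It lies on chromosome 13 at 5861482 to 5870394. At 1 day after SNI the 4 mice had 375 and 213 CPM in set FACS and 549 and 376 CPM in set FACS2018. The naive mice had 52.3, 78.7, 57.5 and 76.3 CPM in set FACS, whereas the 2 naive mice of FACS2018, each down to 1 well, had 709 and 236 CPM. All SNI mice lay above the naive mice of set FACS, and the ranges overlapped through the 2 of FACS2018. The log2 fold change was 1.92 (SE 0.24), or 3.78-fold, with an adjusted p of 0.00203 by edgeR, against a median of 0.35 over all genes in the same fit.

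At 3 days after SNI the 3 remaining mice had 343, 157 and 261 CPM of Klf6, a log2 fold change of 1.43 (SE 0.25, adjusted p = 0.0150 by edgeR) against a median of 0.33 over all genes. After SCI Klf6 was 65.3, 55.9, 186 and 152 CPM at 1 day and 42.2, 54.3 and 148 CPM at 3 days, and its log2 fold changes from naive were 0.09 (SE 0.24) and -0.32 (SE 0.26), neither called. The injuries were then compared directly. At 1 day every SNI mouse lay above every SCI mouse, and the difference of 1.83 (SE 0.27) on the log2 scale had an adjusted p of 0.00961. At 3 days the mice were also separate, at 157 to 343 against 42.2 to 148 CPM, with a difference of 1.76 (SE 0.31, unadjusted p = 2.67e-05), but the adjusted p was 0.302 in edgeR, which called 0 of all genes there. Klf6 therefore passed the test between injuries at 1 day and missed it at 3 days.

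Without the glial wells the share of all 22620 genes called was 6.47% for SNI at 1 day, 4.99% for SNI at 3 days, 0.0354% for SCI at 1 day and 0% for SCI at 3 days, and 0.796% for SNI against SCI at 1 day and 0% in the 3 other comparisons between injured groups. Without 1 mouse the number of genes called for SNI at 1 day, SNI at 3 days and SNI against SCI at 1 day went from 1463, 1128 and 180 to as few as 414, 34 and 8, and with no RUVr factors it was 39, 14 and 0. Klf6 was 1 of 10 KLFs called in each of the 3 comparisons named, and 0 of 10 were called in the other 5. At an unadjusted p under 0.05 there were 3 and 0 KLFs for SCI at 1 and 3 days against naive, 1 for SNI against SCI at 3 days, 1 for SNI between days and 0 for SCI between days, while over all genes it was 1175 to 3625 in these 5. DESeq2 called 0 of 10 in these comparisons except Klf6 for SNI against SCI at 3 days (adjusted p = 1.01e-05).

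The Klf6 calls rested on how unwanted variation was handled. With no RUVr factors (factors of unwanted variation, estimated from residuals) and no glial wells, the log2 fold changes of Klf6 were 0.91 (adjusted p = 0.567) and 0.33 (adjusted p = 0.920) for SNI at 1 and 3 days, and 1.72 (adjusted p = 0.500) for SNI against SCI at 1 day. Within set FACS alone, SNI at 1 day differed from naive by 2.16 (SE 0.32, adjusted p = 0.112) and SNI at 3 days by 1.93 (SE 0.32, adjusted p = 0.0877), whereas within FACS2018 the differences were -0.03 (SE 0.66) and -0.80 (SE 0.84), with 2 naive mice. SNI against SCI at 1 day was positive within both sets, at 2.27 (SE 0.40, adjusted p = 0.144) and 1.40 (SE 0.67, adjusted p = 1). The call at 3 days was lost without SNI replicate 1 of set FACS (1.19, adjusted p = 0.134) and the call between injuries without SCI replicate 2 of set FACS (1.52, adjusted p = 0.117). The 1 remaining well of the naive FACS2018 mouse with 709 CPM had 1.11% of reads on neuronal genes. Without this well and 1 other under 2%, Klf6 differed by 2.24 for SNI at 1 day (adjusted p = 9.33e-05 by edgeR). This choice was made after seeing the data. It left 19 mice and removed the naive mouse with the highest Klf6, which by itself lowers the naive mean, so it is no separate support for the call.

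**Figure D3:**
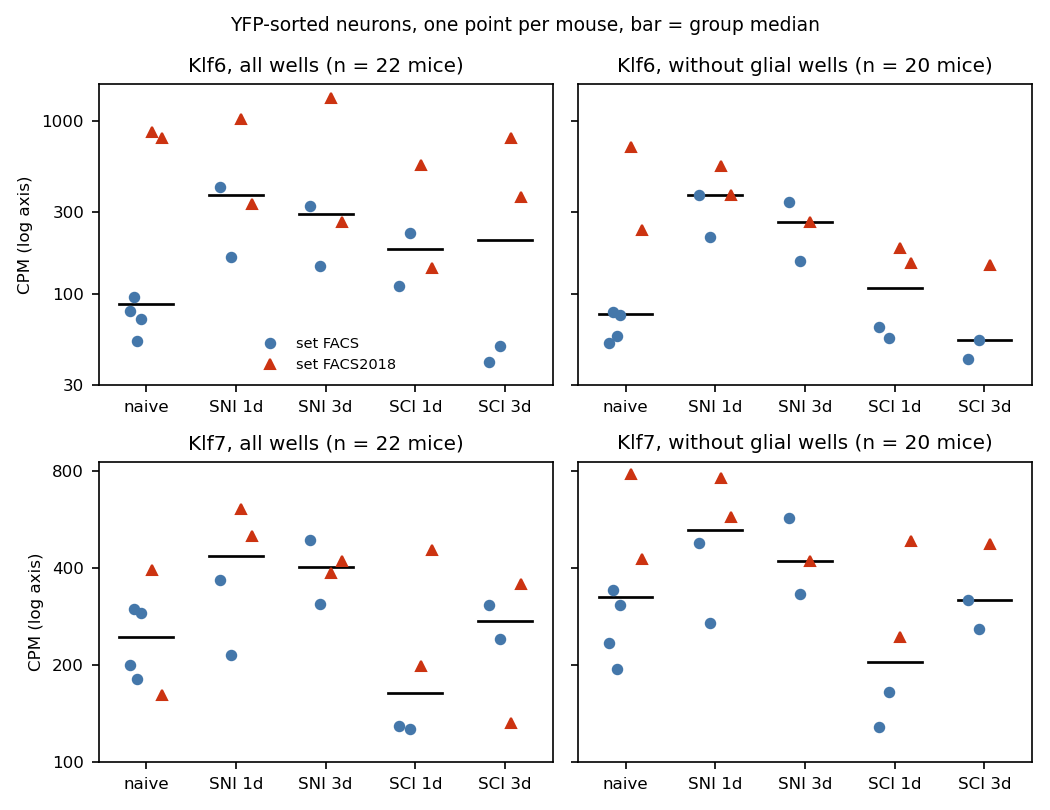
Levels of Klf6 and Klf7 in CPM (log axis) per mouse in the 5 sorted groups, with all wells (n = 22) and without glial wells (n = 20), and a marker for each sequencing set. Without glial wells the 4 SNI mice at 1 day (213 to 549 CPM of Klf6) lie above the 4 SCI mice (55.9 to 186 CPM), and the 2 naive mice of set FACS2018 stand above the other naive mice.

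Klf7, which lies on chromosome 1 at 64029447 to 64122282, had the same direction after SNI and was not called. Without glial wells it was 195 to 781 CPM (median 325) in naive mice, 272 to 764 CPM (median 527) at 1 day after SNI and 128 to 485 CPM (median 205) at 1 day after SCI, and all these ranges overlapped. Its log2 fold change for SNI at 1 day was 0.70 (SE 0.26, adjusted p = 0.144), and the difference between SNI and SCI was 1.07 (SE 0.29, adjusted p = 0.146). With all wells these values were 0.76 (SE 0.33, adjusted p = 0.313) and 0.94 (SE 0.37, adjusted p = 0.454). When wells with under 2% of reads on neuronal genes were left out too, a choice made after seeing the data, Klf7 was called for SNI at 1 day (0.76, adjusted p = 0.0317), SNI at 3 days (0.65, adjusted p = 0.0961) and SNI against SCI at 1 day (1.08, adjusted p = 0.0118). It was also called in 4 of 20 fits without 1 mouse for SNI at 1 day, in 3 of 20 for SNI against SCI at 1 day and in 1 of 20 for SNI at 3 days. Leaving out the naive FACS2018 mouse labelled day 1, which held 781 CPM, was among these in all 3 comparisons, with adjusted p of 0.0300, 0.0154 and 0.0978. This mouse had the highest Klf7 of the naive mice and was also absent from the fit without wells under 2%. The calls of that fit and of the fits without this mouse are therefore not separate results.

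The members known to limit axon growth, Klf4 and Klf9, showed no call in sorted neurons. Without glial wells Klf9 had medians between 36.5 and 62.8 CPM in the 5 groups, and its log2 fold changes from naive were 0.18, 0.15, -0.35 and -0.03 for SNI at 1 and 3 days and SCI at 1 and 3 days, with SEs of 0.27 to 0.29. Klf13, the highest member per length in naive neurons, had medians of 319 to 384 CPM and log2 fold changes from -0.04 to 0.26 (SE 0.26 to 0.29). Klf4 was far less precise, with log2 fold changes from -2.14 to -1.32 and SEs of 1.26 to 1.45. With all wells the log2 fold changes from naive were 0.07 to 0.36 for Klf9, -0.14 to 0.18 for Klf13 and -2.55 to 0.65 for Klf4, none called by edgeR, so the sign for Klf13 in all 4 comparisons, for Klf9 after SCI and for Klf4 at 1 day after SNI turned with the wells used.

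Klf10 was lower on average after SCI, at a median of 16.1 CPM at 1 day against 49.6 CPM in naive mice, with a log2 fold change of -1.18 (SE 0.48, adjusted p = 0.249) without glial wells and -0.84 (SE 0.58, adjusted p = 0.645) with all wells. At 3 days after SNI its 3 mice lay at 53.8 to 78.0 CPM and after SCI at 15.2 to 49.3 CPM, which did not overlap, with a difference of 1.16 (SE 0.59, adjusted p = 0.671) without glial wells and 0.34 (SE 0.63) with all wells. Neither difference passed the test.

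The low members were too sparse to place. Without glial wells Klf4 ranged from 0.0323 to 30.8 CPM over all mice, Klf15 from 0 to 35.6 CPM and Klf3 from 0 to 13.4 CPM, so that 1 mouse could set a group's mean. For Klf3 the log2 fold change for SNI at 1 day was -0.52 (SE 1.00) with all wells and 2.39 (SE 1.07) without the glial wells, and for Klf2 it was 1.77 (SE 0.99) and -0.30 (SE 0.60), so the sign turned with the wells used. Klf2 at 1 day was 1.55 to 5.28 CPM after SNI and 6.96 to 13.1 CPM after SCI without glial wells, a separation whose difference of -1.52 (SE 0.65) had an adjusted p of 0.336. Klf5 had medians of 13.2 CPM at 1 day and 3.32 CPM at 3 days after SNI, a difference of -2.36 (SE 1.06, adjusted p = 0.643).

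**Figure D4:**
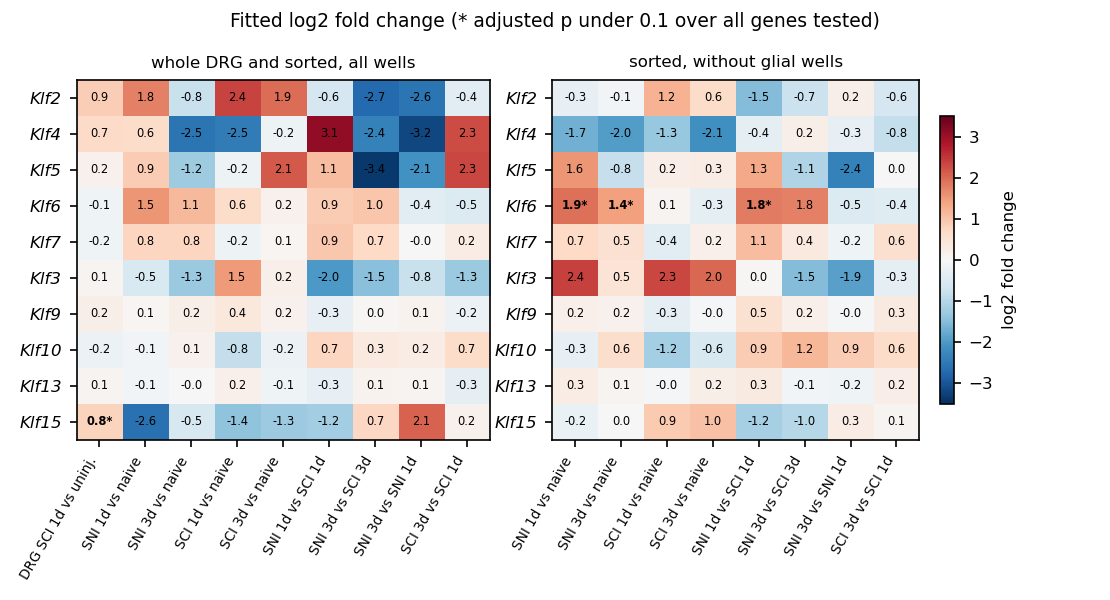
Log2 fold changes of the 10 KLFs in whole DRG after SCI and in the sorted comparisons, with all wells and without glial wells, as a colour grid with an asterisk where the adjusted p was under 0.1. Asterisks stand at Klf15 in whole DRG and at Klf6 in 3 comparisons without glial wells.

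Partners and relatives of the KLFs were read in the same fits. Without glial wells, edgeR called 3 of 12 cofactor genes higher at 1 day after SNI. Wdr5, a subunit of histone methyltransferase complexes, rose by a log2 fold change of 3.46 (adjusted p = 0.0377). The acetyltransferase Ep300 rose by 1.69 (adjusted p = 0.0601) and the corepressor Ctbp2 by 1.42 (adjusted p = 0.0825). At 3 days Ctbp2 rose by 1.63 (adjusted p = 0.0752), as 1 of 12. Among 12 other KLF and SP genes tested the CtBP-binding repressor Klf12 rose by 2.86 (adjusted p = 0.0950). Of 14 early-response genes 2 rose at 1 day, Atf3 by 3.77 and Ier3 by 1.31 (adjusted p = 0.0916), and 1 at 3 days, Atf3 by 2.94. The early-response list's median was -0.12 at 1 day and -0.42 at 3 days, against 0.35 and 0.33 over all genes. With all wells Atf3 alone of the genes in these 4 lists was called after SNI, at log2 fold changes of 3.78 (adjusted p = 0.0259) and 3.05 (adjusted p = 0.0733).

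The glucocorticoid list, of which 7 of 12 genes rose with Klf15 in whole DRG after SCI, had 0 of 11 called in sorted neurons without glial wells after SCI at 1 day, with 4 at an unadjusted p under 0.05 and 2 called by DESeq2, and 0 at 3 days, with 1 and 0. After SNI and without glial wells, Tsc22d3, a leucine zipper gene induced by glucocorticoids, fell by 1.12 at 1 day and by 1.04 at 3 days on the log2 scale, and the cell cycle inhibitor Cdkn1a rose by 1.47 and 1.99. Tsc22d3 was also lower after SNI than after SCI at 1 day, by a log2 difference of -1.24. With all wells edgeR called 0 of 11 for SNI at 1 day, SNI at 3 days and SNI against SCI at 1 day, with 3, 4 and 4 at an unadjusted p under 0.05 and 3, 2 and 2 called by DESeq2. No test compared whole DRG with sorted neurons.

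Over the 22 mice with all wells, the genes most like Klf6 in log2 CPM were Cd63-ps (Pearson r = 0.961) and Cd63 (r = 0.950), which are near copies that can share reads and are therefore uncertain, and the actin filament capping gene Tmod2 (r = 0.903). Those most like Klf2 were Egr2, a factor of myelinating Schwann cells (r = 0.891), Ldlrad3 (r = 0.878) and Dock1 (r = 0.870). These mice differ in how many glial wells they contain, which all these levels share, so the values are a description.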

How the data were processed

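RNA-seq libraries of 8 whole L4 DRG and 66 wells of sorted YFP-positive neurons were read as deposited HTSeq counts, 1 table of raw counts per library. The authors used Cutadapt and PRINSEQ for trimming, STAR 2.5.3a for alignment to GRCm38 and HTSeq 0.6.1 for counting. Multiply mapped reads can be lost in such counts, which touches near-identical genes. The 5 lines of each file that name no gene took 14.15% to 16.6% of the counts in whole DRG and 7.71% to 32.46% in sorted wells, and were left out of library sizes and tests. The series tables, which hold the authors' fold changes, p-values and 123 per-sample normalized columns, were not used here.

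Groups came from the sample labels. The 3 wells of a mouse were summed, since they are technical replicates. Nothing in the labels says more of how replicates differ, so p-values measure the spread between these samples. Genes had to reach a mean of 10 reads (whole DRG) or 20 reads in some mouse (sorted). Differences were tested with edgeR 4.0.16 in R 4.3.3 (quasi-likelihood test, TMM factors, Benjamini-Hochberg adjustment over all genes tested, called under 0.1). All sorted groups were in 1 fit with 2 RUVr factors. The study also used 2 RUVr factors, but in DESeq2 and after removing outlier samples found by robust principal component analysis. The labels do not name its outliers, so no mouse was removed on that ground here. No pair of libraries of the same group was alike within sampling noise. Simulated counts were tried with edgeR for the whole DRG comparison and, with all wells, for SNI at 1 day against naive. The other comparisons, the fits without glial wells and DESeq2 were not tried on simulated counts. DESeq2 1.42.0, other filters and scalings, a replicate block, sequencing set as a term and leaving out each mouse were alternatives. Of each list of genes, at most the 4 with the smallest adjusted p among those called were named, and for a called member (or that with the smallest p) the 3 genes with the highest correlation. The members and all lists were chosen with earlier results of these data known. Promoter sequences are from RefSeq (GRCm38.p6) and matched 8 of 10 members. No interval covers more than counting error and the spread between mice.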

Additional observations from a re-analysis of the deposited data

Results flagged for a closer look

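In 7 of 100 groups of 4 or 6 mice that were examined, 1 mouse stood far from the others by Dixon's criterion, which chance alone meets in about 1 in 20 groups. With all wells, Klf5 was 240.9 CPM in the naive FACS2018 mouse labelled day 1, replicate 1, where the next naive mouse had 8.14 CPM. Klf3 was 118.4 CPM in SCI 1 day replicate 1 of FACS2018, where the next had 8.18 CPM. Klf9 was 318.7 CPM in SCI 3 day replicate 1 of FACS2018, a mouse whose wells were all glial, where the next had 54.6 CPM. Klf15 was 0.990 CPM in SNI 1 day replicate 1 of set FACS, where the next had 0.115 CPM, and without the glial wells the same mouse had 1.29 CPM and the next 0.131 CPM. Without the glial wells the naive FACS2018 mouse labelled day 3, replicate 1, down to 1 well, had 13.9 CPM of Klf10, below the next at 43.1 CPM, and 35.6 CPM of Klf15, above the next at 1.23 CPM. The Klf15 and Klf10 values come from low counts or from a mouse down to 1 well. In contrast, the Klf5, Klf3 and Klf9 values rest on 9571, 5626 and 13848 reads. The cause was not tested.

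Klf6 without the glial wells differed between the 2 injuries at 1 day by the test of the difference itself, with a log2 difference of 1.83 (SNI minus SCI, adjusted p = 0.00961 by edgeR). It was higher in 4 of 4 SNI mice than in any of 4 SCI mice.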

How the results depend on the processing

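In whole DRG the Klf15 call held in 8 of 8 fits without 1 mouse (log2 fold change 0.70 to 0.87) and under every other whole DRG alternative, with adjusted p from 1.1e-07 (DESeq2) to 0.073 (replicate block). The number of KLFs called there was 2 with DESeq2 and 2 with no filter, Klf2 being the addition, and 1 to 2 without 1 mouse (2 without SCI replicate 1). Over all genes DESeq2 called 929 and the replicate block 127, against 408.

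With all wells, DESeq2 called 1 KLF for SNI at 1 day and 1 for SNI against SCI at 3 days. Without the glial wells, 1 KLF was called for SNI at 1 day, 1 for SNI at 3 days and 1 for SNI against SCI at 1 day. DESeq2 without the glial wells called 2 for SNI at 1 day (Klf6, and Klf3 at a reversed log2 fold change of 2.32, adjusted p = 0.0987), 1 for SNI at 3 days, 2 for SNI against SCI at 1 day (Klf6 and Klf7) and 1 at 3 days. Leaving out wells under 2% neuronal reads as well, chosen after seeing the data, gave 2, 2, 2 and 1 in the same order. That choice also removed the naive FACS2018 mouse labelled day 1. Within set FACS alone 1 was called for SNI at 3 days. Leaving out 1 mouse with all wells gave 0 to 1 for SNI at 1 day (Klf6 at 1.88, adjusted p = 0.0809, without the naive FACS2018 mouse labelled day 3) and 0 elsewhere. Without glial wells it gave 1 to 2 and 0 to 2 for SNI at 1 and 3 days and 0 to 2 and 0 to 1 for SNI against SCI at 1 and 3 days, where Klf6 was called at 3 days in 4 of 20 fits (without SCI 3 day replicate 2 of FACS2018, SNI 3 day replicate 2 of FACS or either naive FACS2018 mouse). Over all genes and with all wells, no RUVr factors gave 0, 0, 1 and 0 calls against naive and DESeq2 gave 1447, 2148, 1084 and 1111, against 122, 104, 11 and 12. Without glial wells the lowest counts came without SNI 1 day replicate 1 of FACS2018 (414), SNI 3 day replicate 1 of FACS (34) and SCI 1 day replicate 2 of FACS (8, SNI against SCI at 1 day), the highest being 1539, 1312 and 465, and DESeq2 called 2822, 2367 and 1489.

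Same-numbered whole DRG mice correlated at -0.228 to 0.335, with 1 of 4 pairs over 0.1, and sorted mice of the same set and number at -0.0442 to 0.393 (mean 0.147, against -0.0366 for the others), with 32 of 48. Not every pair passed, so the numbers were not taken to pair the mice, and the sorted match includes the set. With the replicate block 1 KLF was called in whole DRG (Klf15) and, with all wells, 0 in every sorted comparison. Without glial wells the block kept Klf6 called for SNI at 1 day (1.59, adjusted p = 0.0070), SNI at 3 days (1.45, adjusted p = 0.0518) and SNI against SCI at 1 day (1.86, adjusted p = 0.0320), and called Klf10 for SCI at 1 day (-1.67, adjusted p = 0.0476). Set as a term in place of RUVr ended the 3 Klf6 calls (1.21, 1.02 and 1.94).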
